A study of Homo sapiens with 6 samples.

Results

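The miRNAs described here are 7 mature products that are commonly used as signs of mesenchymal cells in liver: hsa-miR-199a-3p, hsa-miR-199a-5p, hsa-miR-199b-5p, hsa-miR-214-3p, hsa-miR-214-5p, hsa-miR-143-3p and hsa-miR-145-5p. They were taken from the table by name, with earlier results of these data known, and all 7 were listed among the 2588 mature human miRNAs of the expression table, of which 1366 had at least 1 count. miRNA sequencing was done on Huh7 cells, a human hepatoma line, 48 h after transfection by Lipofectamine 2000 with a PLC5-CIR plasmid carrying hsa_circ_0098181 (3 samples, the overexpressing group) or with its control plasmid (3 samples, the control group). Both groups therefore carried plasmid and transfection reagent, and untransfected cells, normal liver and stromal cells were not among the samples. A loss of these miRNAs relative to normal tissue could not be measured here, and the data give their level in a hepatoma line and its change with the plasmid. Nothing in the labels says that samples of a group came from separate cultures, so p-values measure the spread between these samples, which may be technical.

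Total counts were between 7144798 and 10786295 per library. Control replicate 3 stood apart from the other controls, with a median absolute log2 difference of 0.21 to each of them over 152 miRNAs with a mean CPM of at least 100 (CPM being the count scaled to a library total of 1000000, after TMM scaling here), while control replicates 1 and 2 differed by 0.049. Results are therefore also given without it where it mattered. In lysates of whole cultures, a low level in every cell and a higher level in few cells cannot be told apart.

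miRNAs are cut from hairpin precursors, and the strand from either arm (5p or 3p) can be loaded into an Argonaute protein, where its seed, bases 2 to 8, pairs with target mRNAs. miR-143 and miR-145 are known for their high level in smooth muscle and other contractile mesenchymal cells. miR-199a and miR-214 are known from mesenchymal cells, including hepatic stellate cells, and miR-199a-3p is among the abundant miRNAs of normal human liver and is commonly lower in hepatocellular carcinoma.

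The precursors lie at 6 loci. In the RefSeq tables (GRCh38.p14; the submitters' processing notes name hg38, the same assembly), MIR214 (chr1:172138798-172138907) and MIR199A2 (chr1:172144535-172144644) are on the minus strand, 5627 bases apart, and in GENCODE release 29 both overlap exons of DNM3OS, a long non-coding RNA antisense to DNM3. MIR199A1 (chr19:10817426-10817496) and MIR199B (chr9:128244721-128244830) are also on the minus strand, within DNM2 and DNM1 on the opposite strand and outside their exons. MIR143 (chr5:149428918-149429023) and MIR145 (chr5:149430646-149430733) are on the plus strand, 1622 bases apart, within the long non-coding RNA gene CARMN, where MIR143 overlaps an annotated exon and MIR145 does not.

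The mature sequences, which show what the counts can and cannot tell apart, were found in RefSeq for 6 of the 7 members and are given 5′ to 3′ with the seed in capitals. hsa-miR-199b-5p was not matched.
hsa-miR-199a-3p: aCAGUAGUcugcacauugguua
hsa-miR-199b-3p (not a member): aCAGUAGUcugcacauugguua
hsa-miR-3129-5p (not a member): gCAGUAGUguagagauugguuu
hsa-miR-199a-5p: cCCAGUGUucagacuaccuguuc
hsa-miR-214-3p: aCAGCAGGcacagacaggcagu
hsa-miR-214-5p: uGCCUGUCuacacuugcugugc
hsa-miR-143-3p: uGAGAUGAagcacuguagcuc
hsa-miR-145-5p: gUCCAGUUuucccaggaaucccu

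The seeds of the 6 members with a printed sequence were all different. The seed of hsa-miR-199b-5p could not be compared, so whether it shares one with another member, such as miR-199a-5p, is not answered here. hsa-miR-199a-3p is encoded by both MIR199A1 and MIR199A2, and the 3p product of MIR199B has the same 22 bases, so that a read of this sequence cannot be assigned to a precursor. hsa-miR-3129-5p, on chromosome 2, has the same seed and also matches them at bases outside it, but its full sequence differs. It had 622 counts over the 6 libraries. The other miRNAs of the table with the seed of miR-214-3p (miR-3619-5p and miR-761) or of miR-143-3p (miR-4770 and miR-6088) had 0 counts in every library. This search covered the 2281 of 2588 listed miRNAs with a RefSeq sequence, and so left out hsa-miR-199b-5p.

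The members differed widely in level. Values are CPM of the library total without further scaling. The printed members are 21 to 23 bases long, but whether miRNAs of different sequence were captured equally well in the libraries was not tested, so the order is that of the counts. hsa-miR-143-3p was the most abundant, with a mean of 86.0 ± 6.21 CPM (SD, n = 6), and ranked 161 of the 1366 detected miRNAs. hsa-miR-199a-3p followed with 32.7 ± 1.60 CPM (SD, n = 6, rank 212). hsa-miR-199b-5p (7.09 ± 1.24 CPM, rank 337), hsa-miR-199a-5p (4.92 ± 1.26 CPM, rank 382) and hsa-miR-145-5p (3.56 ± 0.901 CPM, rank 417) formed a lower group (SD, n = 6). Their ranges over the 6 libraries overlapped between neighbours in this order, although miR-199a-5p was above miR-145-5p in 6 of 6 libraries and miR-199b-5p was above miR-199a-5p in 5 of 6. The steps from miR-143-3p to miR-199a-3p and from miR-199a-3p to miR-199b-5p exceeded the spread, with no overlap among the libraries. Both products of miR-214 were at or near 0. All 7 members together made up 0.0134% of all counts.

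The levels were set beside those of miRNAs known from other cell types. Of 5 miRNAs known from hepatocytes, miR-122-5p had a mean of 322041 CPM, and miR-148a-3p, miR-192-5p and miR-194-5p were among the 12 most abundant miRNAs. The lowest of them, miR-122-3p, had a mean of 189 CPM (rank 121). This list held 42.5% of all counts. By CPM, the level of miR-122-5p was thus 3744 times that of miR-143-3p and 9862 times that of miR-199a-3p. miR-126-3p, which is known from endothelial cells, had 3180 ± 76.2 CPM (SD, n = 6), above every member in every library. The 5 blood cell miRNAs together had 13.3 to 14.3 CPM in the overexpressing samples and 17.0 to 19.1 CPM in the control samples. Among them, miR-142-3p had a mean of 11.7 CPM (rank 297), above every member except miR-143-3p and miR-199a-3p. The others were lower, with means of 1.77 (miR-223-3p), 1.36 (miR-150-5p), 0.69 (miR-451a) and 0.33 CPM (miR-142-5p). All of these lay below the mean of miR-145-5p (3.56 CPM). Among the 3 muscle miRNAs, miR-1-3p had 90 counts (rank 501, with counts in every library), miR-133a-3p had 3 and miR-133b had 0. The members, as a sum, had 125 to 135 CPM in the overexpressing samples and 135 to 144 CPM in the control samples. In this unscaled measure, 70.5% of the 552 miRNAs tested were lower in the overexpressing group (median log2 fold change -0.11). A lower value in this measure was therefore common among single miRNAs. The sums of the members and of the blood cell miRNAs were lower without overlap. Those of the hepatocyte, endothelial and muscle miRNAs overlapped between the groups (endothelial 4178 to 4341 CPM against 3811 to 4292 CPM). The difference between lists was not tested.

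**Figure D1:**
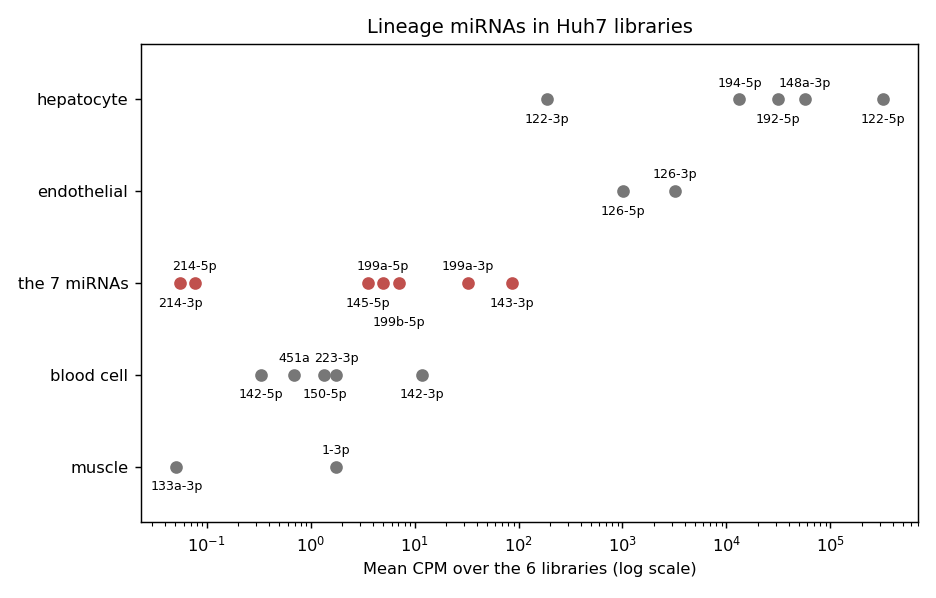
Mean CPM over the 6 libraries (log axis) of miRNAs grouped by the cell type they are known from; each point is a miRNA, and miR-133b, with 0 counts, is not drawn. The 7 members (red) lie below the hepatocyte and endothelial miRNAs, and miR-143-3p is highest among them.

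The comparison of the groups asked whether hsa_circ_0098181, which the study examined as a sponge of miRNAs, went with a change of any member. Counts were scaled by TMM factors, which correct for the composition of a library (0.921 to 0.996 in the overexpressing samples and 1.00 to 1.09 in the controls), and tested by edgeR. The filter on low counts kept 552 miRNAs and 5 of the 7 members, without both products of miR-214. None of these 5 passed the threshold (0 with an adjusted p under 0.05 in edgeR, DESeq2 or limma), as for all miRNAs tested (0%). At an unadjusted p under 0.05, edgeR gave 1 of the 5, beside 9.06% of all miRNAs tested. Without control replicate 3, edgeR called 56 of 565 miRNAs and again 0 of the 5 members. The median log2 fold change was -0.023 over the 5, with 4 below 0, and 0.0038 over all 552 miRNAs, with 49.1% below 0. Of the listed miRNAs of other cell types, 0 of 5 hepatocyte, 0 of 2 endothelial, 0 of 3 blood cell and 0 of 1 muscle miRNAs that could be tested passed the threshold in either direction (edgeR, with 1, 0, 1 and 0 at an unadjusted p under 0.05).

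hsa-miR-199a-5p, the 5p product of MIR199A1 and MIR199A2, was the member with the unadjusted p under 0.05. Its counts were 31, 36 and 30 with hsa_circ_0098181 and 55, 60 and 41 with the control plasmid (replicates 1, 2 and 3, here and below). In CPM, its level was 3.89, 4.25 and 3.62 against 5.10, 6.91 and 5.74, so that every overexpressing sample was below every control sample. The log2 fold change was -0.47 (standard error 0.22, 95% interval -0.94 to -0.0028), with an unadjusted p of 0.0488 and an adjusted p of 0.539 from edgeR's quasi-likelihood test. Groups did not overlap after TMM scaling for 2 of the 5 members, and for 15.4% of all miRNAs tested. miRNAs with the overexpressing group lower in this way, as miR-199a-5p was, made up 6.52%. Without control replicate 3, the log2 fold change was -0.53 (edgeR's adjusted p = 0.207). Over the 16 alternatives it was between -0.59 and -0.34, with adjusted p between 0.207 and 0.847, and in DESeq2 its unadjusted p was 0.0908.

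hsa-miR-199a-3p, from the other arm of the same precursors, was counted 276, 256 and 283 times in the overexpressing samples and 348, 276 and 235 times in the controls. Its level was 34.6, 30.2 and 34.1 CPM against 32.3, 31.8 and 32.9 CPM, and the groups overlapped. After TMM scaling the values were 34.7, 32.8 and 35.3 against 32.1, 30.8 and 30.2 CPM, with every overexpressing sample above every control sample, so that this separation rested on the scaling. The log2 fold change was 0.14 (standard error 0.11, 95% interval -0.098 to 0.38; edgeR's adjusted p = 0.671), and scaling by library size alone gave 0.029. Since the median of all miRNAs was -0.11 under that scaling, the value relative to it was again 0.14. The coefficient of variation between the TMM-scaled libraries was 3.76% with hsa_circ_0098181 and 3.09% with the control plasmid, below the 6.07% and 5.97% that counting alone gives at these counts.

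The counts of hsa-miR-199b-3p, the identical product, were 165, 136 and 143 in the overexpressing samples and 180, 130 and 100 in the controls. Of the 2528 reads of this sequence, 66.2% were listed under miR-199a-3p (95% exact binomial interval 64.3 to 68.1%, for counting error only), and the genome holds it at 2 precursors of the MIR199A name and 1 of the MIR199B name. The share was 62.6, 65.3 and 66.4% in the overexpressing samples and 65.9, 68.0 and 70.1% in the controls, with overlapping groups. For miR-199b-3p alone, the TMM-scaled level was 20.8, 17.4 and 17.8 CPM against 16.6, 14.5 and 12.9 CPM, with every overexpressing sample above every control sample. Without TMM scaling the groups overlapped, with overexpressing replicate 2 (16.1 CPM) below control replicate 1 (16.7 CPM). This separation therefore also rested on the scaling. The log2 fold change of miR-199b-3p was 0.34 (standard error 0.15, unadjusted p = 0.0363 and adjusted p = 0.488 from edgeR). How such reads were divided is not given in the sources used here, so the separate values of both rows are uncertain. With both rows summed before the fit, an alternative chosen after seeing the data, the log2 fold change was 0.21 (standard error 0.11, 95% interval -0.022 to 0.44, adjusted p = 0.567 from edgeR).

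hsa-miR-199b-5p, from the other arm of MIR199B, had 49, 55 and 65 counts in the overexpressing samples and 78, 79 and 41 in the controls. These are 6.14, 6.49 and 7.84 CPM against 7.23, 9.10 and 5.74 CPM, where control replicate 3 was the lowest and control replicate 2 the highest of all. The log2 fold change was -0.0069 (standard error 0.21, 95% interval -0.47 to 0.45, adjusted p = 0.991 from edgeR), and its sign changed with the scaling and with single samples (-0.18 without control replicate 3, 0.16 without control replicate 2). The controls varied by 25.0% after TMM scaling, where counting gives 12.7%.

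hsa-miR-143-3p had 621, 697 and 707 counts in the overexpressing samples and 923, 772 and 687 in the controls. In CPM it was 77.8, 82.3 and 85.3 against 85.6, 89.0 and 96.2, without overlap and lower with hsa_circ_0098181. After TMM scaling the values were 78.1, 89.4 and 88.2 against 85.2, 86.2 and 88.4 CPM and overlapped. The log2 fold change was -0.023 (standard error 0.10, 95% interval -0.25 to 0.20; edgeR's adjusted p = 0.931). Under scaling by library size alone it was -0.14 (adjusted p = 0.622 from edgeR), which is -0.029 relative to the median of all miRNAs. Without overexpressing replicate 1 it was 0.032. As the most deeply counted member, it had the narrowest interval of the 5.

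hsa-miR-145-5p, from the neighbouring precursor, had 30, 18 and 28 counts in the overexpressing samples and 53, 33 and 24 in the controls. Its level was 3.76, 2.13 and 3.38 CPM against 4.91, 3.80 and 3.36 CPM, and the lowest control lay among the overexpressing samples. The log2 fold change was -0.30 (standard error 0.27, 95% interval -0.90 to 0.29, adjusted p = 0.698 from edgeR). It was below 0 in all 16 alternatives, from -0.45 (without control replicate 3) to -0.10, and none of these had an adjusted p under 0.427. The TMM-scaled level varied by 24.4% with hsa_circ_0098181 and 23.6% with the control plasmid, where counting alone gives 20.2% and 17.2%.

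**Figure D2:**
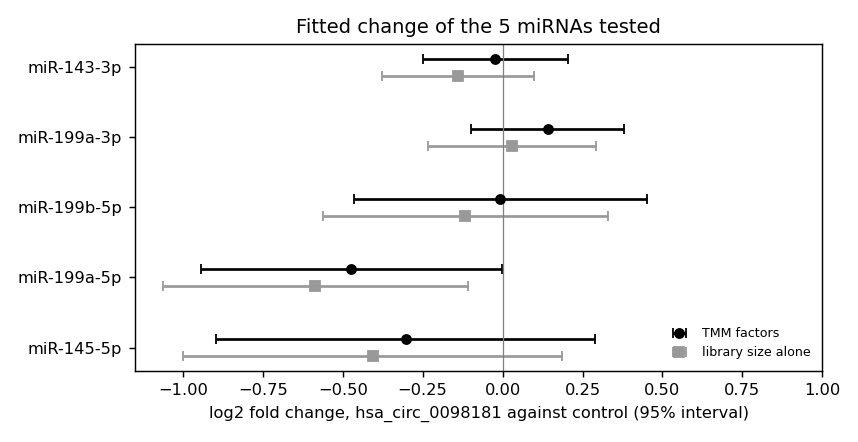
Log2 fold change of the 5 members tested, overexpression against control, with 95% intervals, from edgeR with TMM factors (black circles) and with the library size alone (grey squares). The interval of hsa-miR-199a-5p lies below 0 under both scalings, and the others include 0.

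hsa-miR-214-3p and hsa-miR-214-5p come from the same long non-coding RNA as miR-199a-2. miR-214-3p had 0, 0 and 2 counts in the overexpressing samples and 1, 0 and 0 in the controls. miR-214-5p had 2, 0 and 0 counts against 1, 1 and 0. No library exceeded the limit of 3 counts that a count of 0 allows, which corresponds to 0.278 to 0.420 CPM, so that no fold change is given. Pooled over the 6 libraries, the level was 0.0584 CPM for miR-214-3p (95% exact binomial interval 0.0120 to 0.171 CPM) and 0.0779 CPM for miR-214-5p (0.0212 to 0.199 CPM). miR-199a-3p had 558 times as many counts as miR-214-3p (1674 against 3, counting interval 191 to 2709). MIR199A1 on chromosome 19 also encodes miR-199a-3p, and MIR199B gives the same sequence. The interval does not cover how reads of that sequence were divided.

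Ratios of members within a library, computed from counts with 0.5 added, do not depend on its scaling. miR-199a-3p was counted 8.78, 7.03 and 9.30 times as often as miR-199a-5p in the overexpressing samples and 6.28, 4.57 and 5.67 times as often in the controls. The log2 ratio was 3.05 ± 0.213 (SD, n = 3) with hsa_circ_0098181 and 2.45 ± 0.234 (SD, n = 3) with the control plasmid. The difference of 0.61 came with a two-sided exact permutation p of 0.1, the smallest that 3 samples against 3 allow, and an adjusted p of 0.15 over the 3 ratios tested. Every overexpressing sample was above every control sample. Without control replicate 3 the difference was 0.63. With the identical miR-199b-3p and with miR-199b-5p added, the 3p reads were 5.51, 4.31 and 4.48 times the 5p reads in the overexpressing samples. They were 3.97, 2.92 and 4.09 times the 5p reads in the controls, without overlap. This summed ratio holds the same miR-199a counts, so it is not independent of the ratio above, and it was not tested.

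miR-199a-5p was counted 0.636, 0.658 and 0.466 times as often as miR-199b-5p in the overexpressing samples and 0.707, 0.761 and 1.00 times as often in the controls. The log2 ratio differed by -0.49 between the groups (two-sided exact permutation test, p = 0.1, adjusted p = 0.15), and without control replicate 3 by -0.34. This ratio and the ratio of the arms share miR-199a-5p and are not independent of each other or of its fold change. miR-143-3p was counted 20.4, 37.7 and 24.8 times as often as miR-145-5p in the overexpressing samples and 17.3, 23.1 and 28.1 times as often in the controls, and the groups overlapped (log2 difference 0.26, two-sided exact permutation test, p = 0.5, adjusted p = 0.5). The difference was 0.45 without overexpressing replicate 1, 0.0088 without overexpressing replicate 2, 0.071 without control replicate 1 and 0.42 without control replicate 3.

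**Figure D3:**
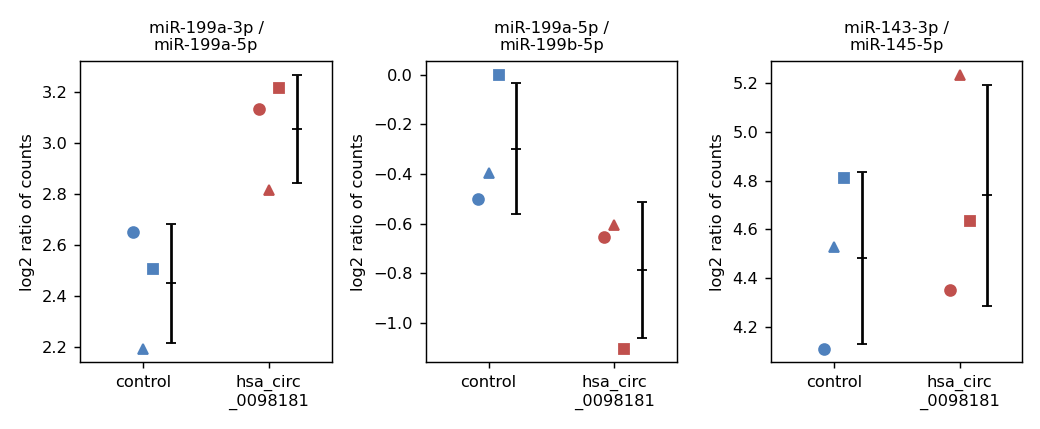
Log2 ratio of counts, with 0.5 added to each, for 3 pairs of miRNAs in each library (circle, triangle and square for replicates 1, 2 and 3), with the group mean and SD beside the points. The axes do not start at 0 and differ between panels. The groups are apart for both ratios that contain hsa-miR-199a-5p and overlap for hsa-miR-143-3p to hsa-miR-145-5p.

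For miR-143 and miR-145, the arm that holds the member led in every library. miR-143-5p had 34 counts in all, against 4407 of miR-143-3p, and between 1 and 13 per library, so that the 3p arm led 129.6-fold over all libraries. miR-145-3p had 50 counts, against 186 of miR-145-5p, so that the 5p arm led 3.72-fold over all libraries and 2.57 to 10.0-fold in single libraries. Both minor products had too few counts to be tested.

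The miRNAs whose TMM-scaled log2 level followed a member most closely over the 6 samples are given as a description, since they were picked as the closest of 551 others over few samples. They were miR-1248 for miR-143-3p (Pearson's r = 0.98), miR-454-5p for miR-199a-3p (0.95), miR-146a-3p for miR-199a-5p (0.94), miR-33b-5p for miR-199b-5p (0.92) and miR-574-5p for miR-145-5p (0.95). miR-199b-3p was the third closest to miR-199a-3p (0.90). No other member was among the 3 closest of any member, and these libraries share the TMM factors and the separate position of control replicate 3.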

How the data were processed

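Small RNA libraries of 6 Huh7 samples were analysed, grouped by their titles. The authors deposited counts of reads per mature miRNA and TPM values, which equal the count scaled by the library total (CPM) to within 0.00303 and carry no length correction. The submitters' processing notes name hg38, Bowtie, TopHat and TopHat2 (2.0.9) without roles. The counting, the annotation and the handling of reads matching several miRNAs are not given in the sources used here, and would alter similar miRNAs most. Molecular identifiers are not mentioned, so intervals and limits on counts cover counting error only.

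Counts were tested with edgeR 4.0.16 in R 4.3.3 (filterByExpr with a minimum count of 10 and total of 15, TMM factors, quasi-likelihood test, two-sided, Benjamini-Hochberg adjustment over all miRNAs, threshold 0.05). The standard error was the fold change divided by the root of F. Ratios used counts with 0.5 added, for pairs with at least 10 counts in every sample, and exact permutation tests (scipy 1.17.1). DESeq2 1.42.0, limma 3.58.1, other scalings and filters, a replicate block and leaving out each sample were alternatives. The edgeR test was tried on simulated data. The members and lists were chosen with earlier results of these data known. The text names the members, the other products of their precursors, miRNAs known from other cell types, and for each member the closest of the 3 miRNAs with the highest Pearson's r. The miRNAs sharing a seed were named after their values were seen.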

Additional observations from a re-analysis of the deposited data

How the results depend on the processing

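edgeR with TMM factors called 0 of 552 miRNAs at an adjusted p under 0.05 (50 unadjusted). It called 3 when scaled by library size alone and 6 without a filter. With a sample left out it called 0 to 56, where 56 was the number without control replicate 3. The causes were not tested. Of the members, 0 were called under each of the 16 alternatives (0 or 1 unadjusted). The log2 fold change of miR-199b-5p, -0.0069, turned to 0.0022 with upper-quartile factors, to 0.019 and 0.024 with limma (1 or 0.1 added to CPM) and to 0.0032 with the replicate block, and was -0.18 to 0.16 with a sample left out. That of miR-143-3p, -0.023, was -0.062 to 0.032 with a sample left out. Of 80 fold changes under alternatives, 73 did not change in sign and 0 passed the threshold. The 24 values of the ratios did not change in sign. For both ratios with miR-199a-5p, leaving out a sample could not change it, since the groups did not overlap. The replicate block repeats the main difference of a ratio by construction. The difference for miR-143-3p to miR-145-5p, 0.26, was 0.0088 without overexpressing replicate 2. The 49 values of the levels moved by less than 1 SD. With a sample left out this could not be otherwise, since the SD came from the same 6 libraries. It is thus no measure of stability. For miR-214-3p, the mean of 0.0557 CPM was 0.0185 CPM without overexpressing replicate 3. Leaving out a sample gave differences of the arm ratio of miR-199a of 0.48 to 0.73. Same-numbered samples were not treated as pairs, and their titles do not say whether they were. Correlations of their deviations were -0.025, 0.15 and 0.24 over 152 miRNAs, which with 3 samples per group cannot settle it. The replicate block gave 0 calls. In miR-145-5p and miR-199a-5p, with 18 to 60 counts per library, the coefficient of variation that counting alone gives averaged 14.0 to 20.2% per group.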
